A study of Homo sapiens with 5 samples.

Results

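The calcineurin-NFAT genes are described here after knock-down of FAM53C in RPE-1, a human line of immortalized retinal pigment epithelial cells. The 10 member genes were chosen by symbol: the nuclear factors of activated T cells NFATC1, NFATC2, NFATC3, NFATC4 and NFAT5, the calcineurin regulators RCAN1 and RCAN2, and the calcineurin subunits PPP3CA, PPP3CB and PPP3R1. All 10 members were found among the 64252 gene identifiers of the count table, and 9 were among the 15341 genes that passed the filter on low counts. RNA-seq libraries were made from polyadenylated RNA 48 hr after transfection with a non-targeting control siRNA (siCtrl, ON-TARGET Control #1, 3 libraries) or with a pool of siRNAs against FAM53C (siFAM53C, ON-TARGETplus, 2 libraries), both at 5 µM according to the labels. The cells carried no other stated allele or treatment, and both groups received siRNA with Lipofectamine RNAiMAX. The labels do not say whether libraries of a group came from separate cultures, so p-values measure the spread between these 5 libraries, which may be technical.

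Calcineurin is a phosphatase switched on by calcium and calmodulin. It is made of a catalytic subunit, encoded by PPP3CA, PPP3CB or PPP3CC, and a calcium-binding regulatory subunit, encoded by PPP3R1 in most tissues. Active calcineurin removes phosphates from NFATC1 to NFATC4, which then enter the nucleus and bind DNA at sites with the core GGAAA, and kinases of the DYRK, GSK3 and casein kinase 1 families put phosphates back and send NFAT out of the nucleus again. RCAN1 and RCAN2 bind calcineurin and restrain it, and RCAN1 is itself transcribed from an NFAT-driven promoter inside the gene, which makes its RNA a common readout of the pathway. NFAT5 shares the DNA-binding domain but answers to osmotic stress and lacks the calcineurin docking region. FAM53C binds DYRK1A, a kinase encoded in the same chromosome 21 region as RCAN1. RNA levels carry no information on the phosphorylation or location of NFAT.

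The RCAN1 promoter inside the gene is shown because it is the textbook NFAT-responsive stretch among the members. RefSeq lists 6 RCAN1 start sites, and the 250 bases upstream of only 1 of them hold the letters GGAAA or their complement TTTCC, searched on both strands. That window, chr21:34526823-34527072 on the minus strand of GRCh38.p14, holds 4 matches, 1 of GGAAA and 3 of TTTCC, in capitals:
RCAN1 intragenic promoter: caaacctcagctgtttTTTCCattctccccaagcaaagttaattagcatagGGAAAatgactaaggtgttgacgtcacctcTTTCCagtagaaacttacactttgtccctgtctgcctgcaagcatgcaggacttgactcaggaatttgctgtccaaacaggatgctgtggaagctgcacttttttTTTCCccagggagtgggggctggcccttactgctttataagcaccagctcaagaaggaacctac
At least 1 match stood in 55.6% of all 35116 RefSeq promoter windows of that length, and 4 or more stood in 1.87%. Of the 18 windows listed for 7 members, 7 held a match, including 1 of the 3 NFATC4 windows and the only PPP3R1 window. RefSeq windows of NFAT5, PPP3CA and PPP3CB were not analysed here. A match is a run of letters and not a measured binding site.

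A second set of sequences is shown because of a pattern across all genes: the heptamer GACAAGA in 3′ UTRs, picked on these same libraries, goes with lower RNA after siFAM53C. Of the 12075 tested genes with an annotated 3′ UTR, 11.6% held it, and 15.1% of those were called lower against 2.92% of the genes without it. Because of that choice, the difference is a description only. Among the members it was found in NFATC2 and NFAT5, shown with 10 bases on either side and the heptamer in capitals, beside the site in FAM53C:
FAM53C, chr5:138347128-138347154, plus strand: gactggccggGACAAGAtaaacggagc
NFAT5, chr16:69703339-69703365, plus strand: ttatgtttcaGACAAGAattatttact
NFATC2, chr20:51390750-51390776, minus strand: gtcttgcccaGACAAGAtcacctgtta
All positions are in GRCh38. The other 8 members, PPP3R1 among them, lacked these letters in the longest annotated 3′ UTR. That UTR was 8315 bases in NFAT5 and 4533 bases in NFATC2, longer than in any other member. The comparison over all genes took no account of UTR length.

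Libraries held 19260124 to 25615415 counts. FAM53C stood at 60.8, 59.6 and 57.5 CPM (counts per 1000000 counts of the library, its total scaled with a TMM factor) in siCtrl replicates 1 to 3 and at 14.2 and 22.3 in the siFAM53C replicates (log2 fold change -1.71, SE 0.19, adjusted p = 0.00363 in the quasi-likelihood test of edgeR, adjusted by Benjamini-Hochberg as throughout). A second difference between libraries crossed the conditions. Along the first principal component, which held 39.8% of the variance, siCtrl replicates 1 and 2 stood at -31.5 and -47.4 and siFAM53C replicate 1 at 0.26, whereas siCtrl replicate 3 and siFAM53C replicate 2 stood at 33.7 and 44.9. The sides of this split were set at the widest gap along the component. Because siFAM53C replicate 1 stood about midway between siCtrl replicate 1 and siCtrl replicate 3, its side was nearly a tie. The labels name no batch. In the column names of the counts, however, siCtrl replicate 3 and siFAM53C replicate 2 both carry the number 3. The other libraries carry 1 or 2, so these numbers match the split. What they stand for is not stated. Differences within each side are therefore given beside the results the split touches, with no test. They set siFAM53C replicate 1 against siCtrl replicates 1 and 2, and siFAM53C replicate 2 against siCtrl replicate 3. Of the epithelial markers, KRT8, KRT18 and, at 5.81 to 10.6 CPM, KRT7 were present in every library. CDH1, EPCAM and KRT19 had at most 5 counts in any library. Of the pigment epithelium markers, MITF and OTX2 were present. PMEL and BEST1 were low in every library, at 0.551 to 1.23 and 0.170 to 0.785 CPM. TYR and RLBP1 had at most 2 counts in any library, and RPE65 and TTR had no count. The RNA thus carried few defining marks of mature pigment epithelium.

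Of the 9 tested members, 1 was called lower and 1 higher at an adjusted p under 0.05, where 3.47% of the 15341 genes tested were called lower, 0.489% higher and 3.96% in either direction. With 9 genes, 1 call in each direction is too few to set the members apart from that background. The RNA of PPP3R1, the regulatory subunit of calcineurin, fell to 0.613 times its siCtrl level, and the RNA of NFATC4 rose 1.65-fold. RCAN1, NFATC3, NFAT5, NFATC2, PPP3CA, PPP3CB and NFATC1 were not called, and RCAN2 was not detected. The median log2 fold change of the 9 tested members was -0.09, with 6 below 0 and 3 above, beside a median of 0.016 over all genes tested. At an unadjusted p under 0.05 the count of members was likewise 1 lower and 1 higher, where 10.5% of all genes tested were lower and 6.61% higher. Both siFAM53C libraries stood below every siCtrl library for 3 members, PPP3R1, RCAN1 and PPP3CB, and above every siCtrl library for 1, NFATC4, shares that among all genes tested were 18.8% and 16.7%. In bulk RNA, fewer cells of a type and less RNA per cell cannot be told apart.

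**Figure D1:**
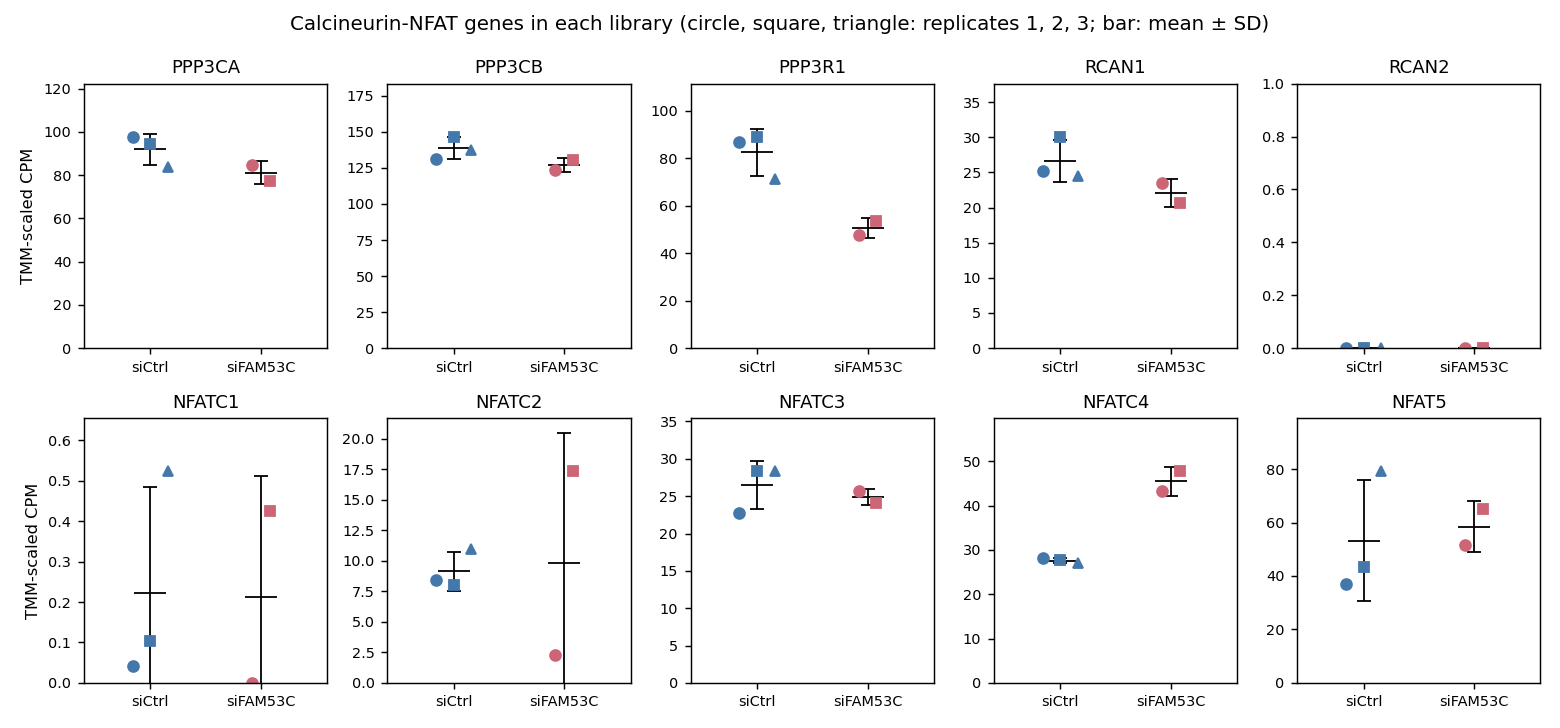
Each panel plots 1 gene, with TMM-scaled CPM on a linear vertical axis from 0 and each library as a point (circle, square and triangle for replicates 1, 2 and 3), with the mean as a bar and the SD as whiskers, clipped at 0. The siFAM53C points lie below all siCtrl points for PPP3R1, RCAN1 and PPP3CB, above them for NFATC4, and on both sides of them for NFATC2.

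The catalytic subunits are described first. PPP3CA (ENSG00000138814, chr4:101023409-101348278, minus strand), the calcineurin A alpha subunit, stood at 97.9, 94.3 and 84.0 CPM in siCtrl replicates 1 to 3 and at 84.9 and 77.4 in the siFAM53C replicates. The lowest siCtrl library lay below the higher siFAM53C library, so the groups overlapped. The log2 fold change was -0.18 (SE 0.11, 95% interval -0.45 to 0.08, adjusted p = 0.482 in the edgeR quasi-likelihood test, Benjamini-Hochberg). PPP3CB (ENSG00000107758, chr10:73436433-73496024, minus strand), the A beta subunit, stood at 132, 147 and 138 CPM with siCtrl and at 123 and 130 with siFAM53C. Both siFAM53C libraries were below every siCtrl library, but the nearest libraries of the groups were close. Its log2 fold change was -0.13 (SE 0.10, 95% interval -0.37 to 0.11, edgeR adjusted p = 0.604). PPP3CC, the third catalytic gene and not a member, stood at 27.0 to 34.6 CPM with siCtrl and at 25.3 and 29.5 with siFAM53C, with a log2 fold change of -0.12 (edgeR adjusted p = 0.789).

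PPP3R1 (ENSG00000221823, chr2:68178857-68256237, minus strand) encodes calcineurin B type 1, the regulatory subunit without which the catalytic subunit is neither stable nor fully active. It received 2054, 1707 and 1362 counts in siCtrl replicates 1 to 3 and 1265 and 1262 in the siFAM53C replicates. On the scaled axis this was 87.1, 89.2 and 71.3 CPM against 47.8 and 53.5 CPM, or 82.5 ± 9.80 (SD, n = 3) against 50.6 ± 4.06 (SD, n = 2). The groups did not overlap, siFAM53C being the lower, and siCtrl replicate 3 was the lowest of its group. The log2 fold change was -0.71 (SE 0.14, 95% interval -1.02 to -0.39), and the adjusted p was 0.0312 (edgeR quasi-likelihood test, Benjamini-Hochberg). Within each side of the library split the difference was -0.88 and -0.41 on the log2 scale, the smaller value between siFAM53C replicate 2 and siCtrl replicate 3. The call was lost without siCtrl replicate 1 (-0.66, edgeR adjusted p = 0.13), siCtrl replicate 2 (-0.65, 0.146), siFAM53C replicate 1 (-0.63, 0.236) or siFAM53C replicate 2 (-0.79, 0.124), and was kept without siCtrl replicate 3 (0.00217). Of the 3364 exon bases of PPP3R1, 700 overlap an antisense gene, whose reads could be counted here if the counting ignored strand, and 462 overlap a same-strand gene that had 0 counts in every library.

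The balance of regulatory to catalytic RNA follows from these values. Per exon length (RPKM, the CPM divided by the exon length in kilobases), the ratio of PPP3R1 to the sum of PPP3CA, PPP3CB and PPP3CC was 0.478, 0.472 and 0.385 in siCtrl replicates 1 to 3 and 0.288 and 0.314 in the siFAM53C replicates. The siFAM53C ratios were both below all siCtrl ratios. The catalytic sum itself was 54.1, 56.2 and 55.1 RPKM with siCtrl and 49.3 and 50.6 with siFAM53C. Its groups did not overlap, but the sum was not tested and none of its genes was called. Among all genes tested, both siFAM53C libraries stood below every siCtrl library in CPM for 18.8%. The ratio is built from the PPP3R1 counts that were called and is no separate evidence of the change.

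**Figure D2:**
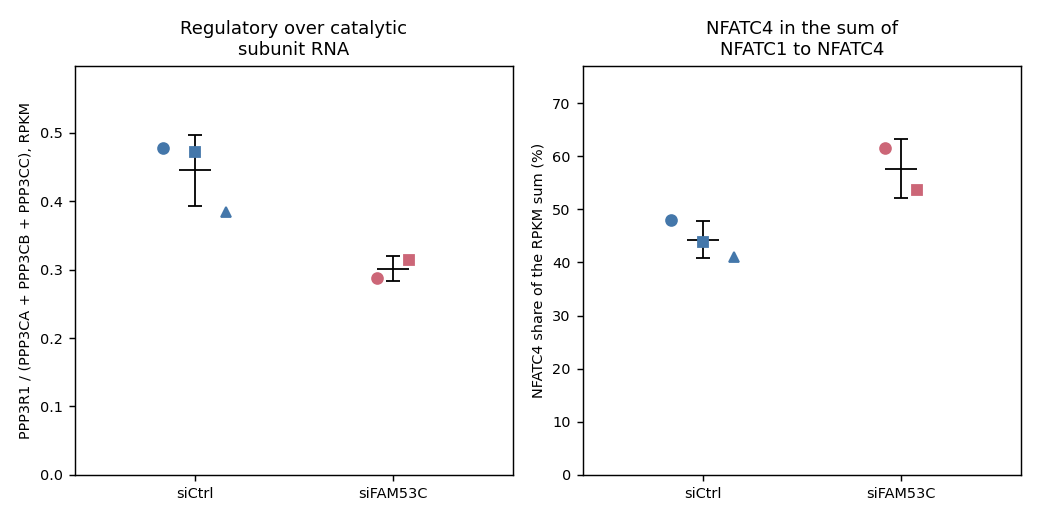
The left panel plots the ratio of PPP3R1 RPKM to the summed RPKM of the 3 catalytic genes, and the right panel the percentage of the NFATC1 to NFATC4 RPKM sum held by NFATC4, each axis linear from 0 with 1 point per library and the mean ± SD. In the left panel the siFAM53C libraries (0.288 and 0.314) lie below the siCtrl libraries (0.385 to 0.478), and in the right panel they lie above them (53.7% and 61.6% against 41.0% to 48.1%). Each panel is built from the counts of a called gene and is no separate evidence of its change.

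RCAN1 (ENSG00000159200, chr21:34513142-34615113, minus strand), the inhibitor whose intragenic promoter is printed above, was counted 596, 576 and 468 times in the siCtrl libraries and 621 and 486 times in the siFAM53C libraries. Scaled to depth it stood at 25.3, 30.1 and 24.5 CPM against 23.4 and 20.6 CPM. Both siFAM53C libraries lay below all siCtrl libraries, with siFAM53C replicate 1 close under the lowest of them. Its log2 fold change was -0.27 (SE 0.15, 95% interval -0.63 to 0.08, edgeR adjusted p = 0.43), so the gene was not called and the interval included 0. Within each side of the library split the values were close to each other, at -0.23 and -0.25. The counts are for the whole gene and do not separate RNA started at the printed promoter from RNA started at the other 5 sites.

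RCAN2 (ENSG00000172348, chr6:46220736-46491972, minus strand), the second member of the inhibitor family, had 0 counts in all 5 libraries. A count of 0 allows up to 3 counts, which is 0.113 to 0.157 CPM depending on the library, for counting error only. RCAN3, a family relative outside the 10 members, was present at 28.4 to 37.6 CPM with siCtrl and at 28.8 and 36.7 with siFAM53C, and its log2 fold change was -0.0059 (edgeR adjusted p = 0.993).

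The genes whose pattern over the 5 libraries was nearest to that of RCAN1 were ATG5, which takes part in autophagosome formation, BLVRA, a biliverdin reductase, and WDR77, a partner of the arginine methyltransferase PRMT5. Their centred log2 CPM differed from that of RCAN1 by a root mean square of 0.0158, 0.0272 and 0.0286, among 9297 genes with a mean of at least 10 CPM. Their log2 fold changes were -0.28, -0.26 and -0.22, and none was called. The likeness describes these 5 libraries only.

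Of the transcription factors, NFATC4 (ENSG00000100968, chr14:24365673-24379604, plus strand) was the member that rose. NFATC4 belongs to the calcineurin-dependent NFAT proteins and is known from heart and neural tissue rather than from T cells. It received 664, 530 and 515 counts in siCtrl replicates 1 to 3 and 1144 and 1126 in the siFAM53C replicates. As CPM this was 28.2, 27.7 and 27.0 against 43.2 and 47.7, or 27.6 ± 0.608 (SD, n = 3) against 45.5 ± 3.21 (SD, n = 2). The siCtrl libraries stood close together and both siFAM53C libraries were well above them. The log2 fold change was 0.72 (SE 0.12, 95% interval 0.45 to 0.99, adjusted p = 0.0159 in the edgeR quasi-likelihood test, Benjamini-Hochberg). On the respective sides of the library split the difference was 0.63 and 0.82. The call was lost without siCtrl replicate 1 (0.73, edgeR adjusted p = 0.0826), siCtrl replicate 2 (0.72, 0.0884), siFAM53C replicate 1 (0.78, 0.0993) or siFAM53C replicate 2 (0.64, 0.169), and was kept without siCtrl replicate 3 (0.00731). No annotated exon of another gene overlaps NFATC4.

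NFATC3 (ENSG00000072736, chr16:68084751-68229259, plus strand), a broadly expressed NFAT, stood at 22.8, 28.3 and 28.3 CPM in the siCtrl libraries and at 25.6 and 24.1 CPM in the siFAM53C libraries. Both siFAM53C values lay inside the siCtrl range. Its log2 fold change was -0.09 (SE 0.15, 95% interval -0.44 to 0.26, edgeR adjusted p = 0.834). Of its 8806 exon bases, 2910 overlap exons on the opposite strand. A further overlap of 1670 bases is with same-strand genes that each had at most 5 counts in any library. The strand setting of the counting is not given, and part of the NFATC3 counts is uncertain.

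NFATC2 (ENSG00000101096, chr20:51386957-51562831, minus strand), is the NFAT best known from T cells. Its counts were 198, 154 and 209 for siCtrl replicates 1 to 3 and 60 and 409 for the siFAM53C replicates. These were 8.40, 8.05 and 10.9 CPM against 2.27 and 17.3 CPM, so siFAM53C replicate 1 was the lowest and siFAM53C replicate 2 the highest of all libraries. The fitted log2 fold change of 0.10 (SE 0.80, 95% interval -1.95 to 2.15, edgeR adjusted p = 0.973) averages these opposite libraries. Within each side of the library split the difference was -1.82 for siFAM53C replicate 1 and 0.66 for siFAM53C replicate 2. The value became 0.92 when siFAM53C replicate 1 was left out and -2.01 when siFAM53C replicate 2 was (edgeR adjusted p = 0.058).

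NFATC1 (ENSG00000131196, chr18:79395856-79529325, plus strand) was near the limit of detection. Its counts were 1, 2 and 10 for siCtrl replicates 1 to 3 and 0 and 10 for the siFAM53C replicates. The libraries with 10 counts were siCtrl replicate 3 and siFAM53C replicate 2, which stood on the same side of the library split. The log2 fold change of -0.07 carried an SE of 1.51, and no difference was detectable at this depth.

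NFAT5 (ENSG00000102908, chr16:69565094-69704666, plus strand), the osmotic stress factor, stood at 37.1, 43.4 and 79.2 CPM with siCtrl and at 51.7 and 65.2 CPM with siFAM53C. Replicate 3 stood far above the other siCtrl libraries, and both siFAM53C libraries lay between. The log2 fold change was 0.14 (SE 0.34, 95% interval -0.69 to 0.97, edgeR adjusted p = 0.894). The difference was 0.36 on the side of siFAM53C replicate 1 and -0.28 on the other. Without siCtrl replicate 3 the value was 0.55 and was called (edgeR adjusted p = 0.0431), whereas it was -0.07 when siCtrl replicate 1 was left out and -0.04 when siFAM53C replicate 2 was, so the direction rested on which libraries were used. Of its 20275 exon bases, 1588 are shared with a same-strand gene that had 0 counts. Over all 5 libraries, with condition alone in the model, neither NFAT5 nor NFATC2, the members with the printed heptamer, was called.

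**Figure D3:**
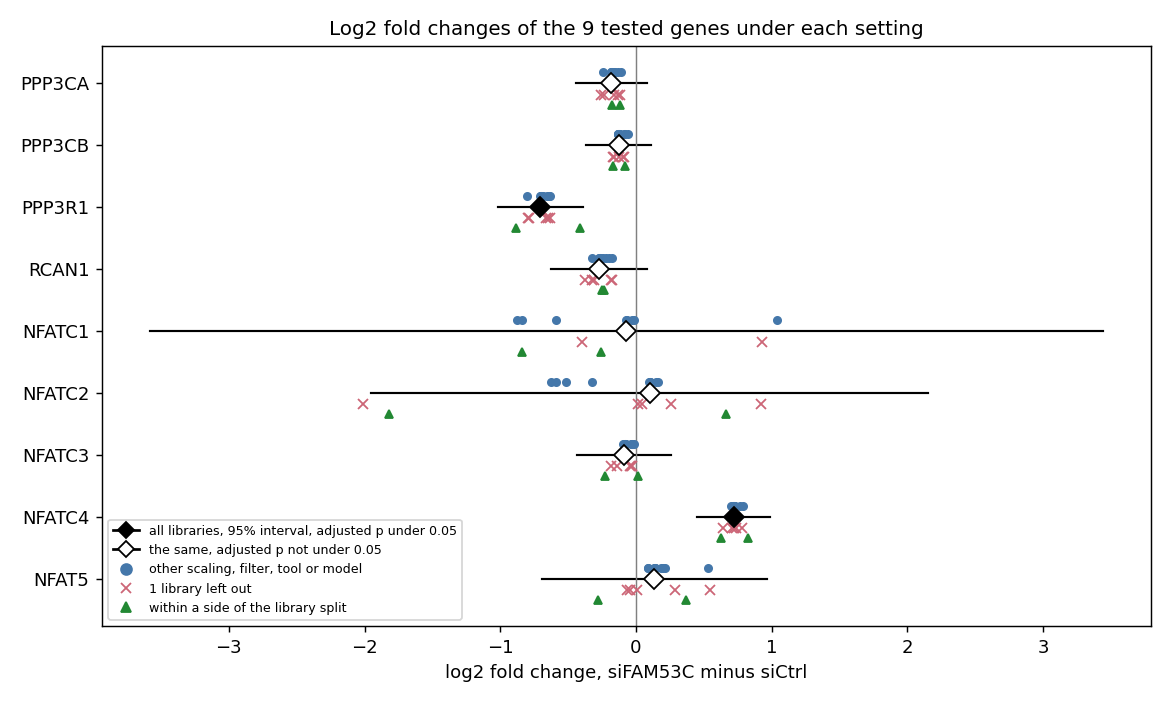
For each of the 9 tested genes the diamond marks the log2 fold change of siFAM53C against siCtrl over all 5 libraries (horizontal axis, siFAM53C minus siCtrl) with its 95% interval, filled where the adjusted p was under 0.05, with circles for other settings, crosses for fits without 1 library and triangles for the values within each side of the library split. All marks of NFATC4 lie above 0 and all marks of PPP3R1 below it. The marks of RCAN1, PPP3CA and PPP3CB, which were not called and whose intervals include 0, also all lie below 0. Those of NFATC1, NFATC2, NFAT5 and, by 1 triangle, NFATC3 lie on both sides of 0.

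Per exon length, RNA of the phosphatase subunits stood far above RNA of the factors that calcineurin acts on. This length is the union of all annotated exons, so the order and shares of genes depend on how many exons are annotated. NFATC4 has 33 annotated transcripts over 8437 bases, and PPP3R1 has 3 over 3364. In the siCtrl libraries PPP3CB stood at 27.2 ± 1.51 RPKM and PPP3R1 at 24.5 ± 2.91 RPKM (SD, n = 3), and their libraries overlapped. PPP3CA followed at 17.7 ± 1.39 RPKM, with every siCtrl library below those of PPP3R1, and RCAN1 stood at 3.82 ± 0.437 RPKM. NFATC4 (3.27 ± 0.0720 RPKM), NFATC3 (3.01 ± 0.364 RPKM) and NFAT5 (2.63 ± 1.12 RPKM) followed, and each overlapped its neighbour. NFATC2 stood at 1.10 ± 0.190 RPKM, apart from NFAT5, and NFATC1 at 0.0246 RPKM. NFATC4 held 48.1%, 43.9% and 41.0% of the summed RPKM of NFATC1 to NFATC4 in siCtrl replicates 1 to 3 and 61.6% and 53.7% in the siFAM53C replicates, so that its share was higher in both siFAM53C libraries than in any siCtrl library. These shares are built from the NFATC4 counts that were called and are no separate evidence of a change. A larger NFATC4 part also lowers the shares of the other genes. The share of NFATC3 was 37.3%, 43.0% and 41.3% with siCtrl and 35.1% and 25.998% with siFAM53C. The RNA of NFATC3 itself was not called (log2 fold change -0.09, edgeR adjusted p = 0.834). The share of NFATC2 was 14.6%, 12.98% and 16.95% with siCtrl and 3.29% and 19.9% with siFAM53C, on both sides of the siCtrl range.

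**Figure D4:**
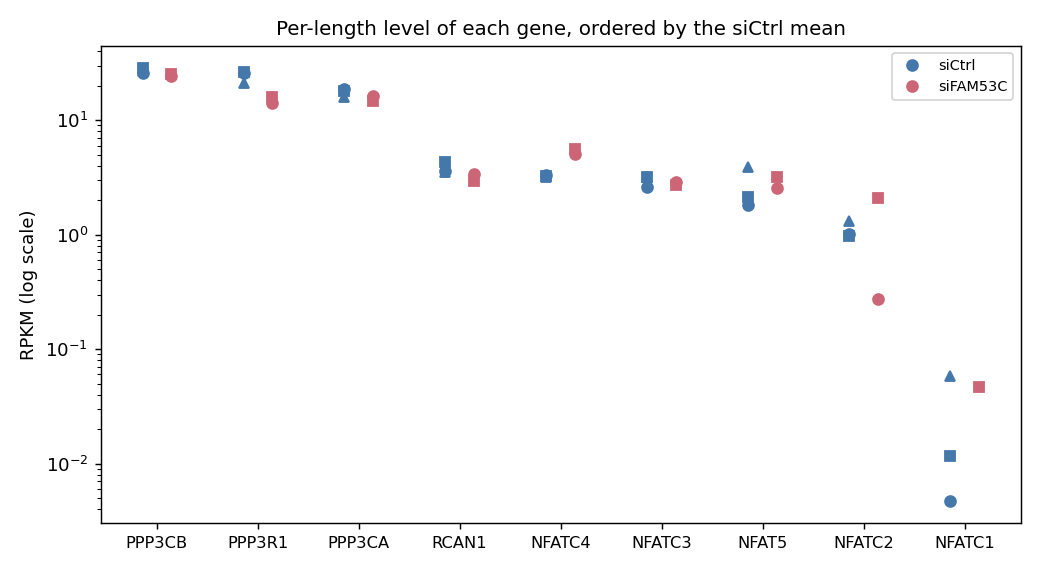
RPKM (log axis) of the 9 genes with counts, ordered by the siCtrl mean, with 1 point per library (circle, square and triangle for replicates 1, 2 and 3), and with RCAN2 and the library with 0 counts of NFATC1 left out because 0 has no place on a log axis. The points of PPP3CB, PPP3R1 and PPP3CA lie between 14.2 and 28.8 RPKM in every library, above all points of the other genes.

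The wider pathway was described with 59 further genes, of which 45 were tested. Of these, 2 were called lower and 1 higher, against 3.47% and 0.489% of all genes, and their median log2 fold change was -0.04. Among 16 further calcineurin subunits, partners and inhibitors, 13 were tested and none was called, and at an unadjusted edgeR p under 0.05 there were 1 lower and 1 higher (10.5% and 6.61% of all genes). HOMER2, a scaffold that binds NFAT, had the highest value of the list, 0.34, on at most 12 counts in a library.

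Of the 10 genes of NFAT kinases and shuttling, all tested, 2 were called lower and 0 higher (3.47% and 0.489% of all genes). At an unadjusted edgeR p under 0.05 there were 4 lower and 0 higher (10.5% and 6.61% of all genes). DYRK2, a DYRK family kinase, stood at 47.5, 42.1 and 47.8 CPM with siCtrl and at 24.9 and 19.7 CPM with siFAM53C, and fell by 1.04 on the log2 scale (SE 0.15, edgeR adjusted p = 0.00959). DYRK1A, the partner of FAM53C, was not called (-0.13, edgeR adjusted p = 0.668). GSK3B, which rephosphorylates nuclear NFAT, stood at 117, 120 and 123 CPM with siCtrl and at 83.3 and 88.5 CPM with siFAM53C, and fell by 0.48 (SE 0.098, edgeR adjusted p = 0.0403). Both siFAM53C libraries were below all siCtrl libraries for DYRK2 and for GSK3B. The DYRK2 call was lost without siCtrl replicate 1 (-1.01, edgeR adjusted p = 0.0657) or siFAM53C replicate 2 (-0.88, 0.0782). The GSK3B call was lost when library totals (-0.41, edgeR adjusted p = 0.0734) or upper-quartile factors (-0.43, 0.0635) replaced TMM factors. It was also lost without siCtrl replicate 1 (-0.50, edgeR adjusted p = 0.133), siCtrl replicate 2 (-0.48, 0.171), siFAM53C replicate 1 (-0.44, 0.315) or siFAM53C replicate 2 (-0.53, 0.206). DYRK1B had the highest value of the list, 0.29 (edgeR adjusted p = 0.676), and GSK3A, the close relative of GSK3B, stood at 0.06 (0.877). KPNB1, an importin, and CSNK1A1, a casein kinase 1 gene, had values of -0.42 and -0.36 that were not called (edgeR adjusted p = 0.102 and 0.222).

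Of 10 genes of store-operated calcium entry, the influx that feeds calcineurin, 9 were tested. Of these, 0 were called lower and 1 higher (3.47% and 0.489% of all genes). At an unadjusted edgeR p under 0.05 there were 2 lower and 1 higher (10.5% and 6.61% of all genes). ORAI3, a channel subunit of the plasma membrane, stood at 9.24, 7.998 and 6.39 CPM with siCtrl and at 18.5 and 14.0 CPM with siFAM53C, and rose by 1.04 on the log2 scale (SE 0.23, edgeR adjusted p = 0.0486). The groups did not overlap, but the call lay just inside the threshold, and 1397 of the 2641 exon bases of ORAI3 are shared with another same-strand gene. The call was lost without siCtrl replicate 1 (1.18, edgeR adjusted p = 0.107), siCtrl replicate 2 (1.05, 0.181), siFAM53C replicate 1 (0.83, 0.361) or siFAM53C replicate 2 (1.22, 0.119). ORAI1 and ORAI2 had values of 0.05 and 0.12, and the calcium sensors STIM1 and STIM2 had values of 0.12 and -0.32, none of them called. ITPR2, an inositol trisphosphate receptor of the endoplasmic reticulum, had the lowest value, -0.35 (edgeR adjusted p = 0.385).

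Of 15 genes that NFAT is known to drive in other cells, 7 were tested and none was called. At an unadjusted edgeR p under 0.05 there were 0 lower and 1 higher (10.5% and 6.61% of all genes). The median log2 fold change was -0.30, beside 0.016 over all genes tested. That median was the value of IL6, which had few counts and an SE of 0.78. IL2, TNF, IFNG, FASLG, CD40LG and VCAM1 had 0 counts in every library. CXCL8, a chemokine gene, had the lowest value. It stood at 13.02, 14.2 and 131 CPM in siCtrl replicates 1 to 3 and at 5.44 and 57.2 CPM in the siFAM53C replicates. The high libraries, siCtrl replicate 3 and siFAM53C replicate 2, were those on 1 side of the library split, and the overall log2 fold change of -0.75 had an SE of 1.68 (edgeR adjusted p = 0.883). Within the sides the difference was -1.31 and -1.20, and with the side as a term in the fit it was -1.25 (edgeR adjusted p = 1.06e-06, in a fit where 10.7% of all genes were called lower and 6.76% higher). The side term was defined from the same libraries, with the side of siFAM53C replicate 1 nearly a tie, and is no design of the study. IL6, another cytokine gene, stood at 1.61, 1.41 and 5.44 CPM against 0.944 and 3.65 CPM, with the same libraries high. EGR3, an early growth response gene, had the highest value, 1.44 (SE 0.45, edgeR adjusted p = 0.152), at 0.523 to 1.06 CPM with siCtrl and at 2.27 and 2.33 CPM with siFAM53C. With the side term EGR3 was at 1.55 and was called (edgeR adjusted p = 0.026). F3, tissue factor, was the most abundant by CPM and had a value of -0.07 (edgeR adjusted p = 0.912).

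Of 8 osmotic target genes of NFAT5, 6 were tested and none was called, and at an unadjusted edgeR p under 0.05 there were 1 lower and 1 higher (10.5% and 6.61% of all genes). SLC5A3, the myo-inositol transporter, stood at 28.2, 33.8 and 45.5 CPM with siCtrl and at 56.8 and 61.0 CPM with siFAM53C. The groups did not overlap, and the log2 fold change of 0.72 was not called (edgeR adjusted p = 0.101). AKR1B1, which makes sorbitol, and SLC6A6, the taurine transporter, had values of 0.07 and -0.07. SLC38A2, an amino acid transporter, had the lowest value of the list, -0.35 (edgeR adjusted p = 0.244), and S100A4, a calcium-binding protein, the highest, 0.83 (0.424), at under 3 CPM. With the side term, SLC38A2 was at -0.38 and was called (edgeR adjusted p = 0.0034).

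Among the genes listed as markers of other cell types, 1 differed between the conditions. RPE-1 is a single cell line, and whether cells of another type were present was not tested. COL1A1, a collagen of mesenchymal cells, stood at 18.3, 15.8 and 18.6 CPM with siCtrl and at 29.1 and 29.4 CPM with siFAM53C (log2 fold change 0.74, edgeR adjusted p = 0.031), and it was the only called marker among the 3 tested of 7 markers of other cell types. That call was lost without siCtrl replicate 1 (0.77, edgeR adjusted p = 0.115), siCtrl replicate 2 (0.67, 0.131), siFAM53C replicate 1 (0.74, 0.206) or siFAM53C replicate 2 (0.73, 0.196). The summed level of these 7 markers was 3531 to 4162 CPM with siCtrl and 3252 to 3898 CPM with siFAM53C. Nearly all of it was VIM, and without VIM the sums were 16.7 to 19.8 CPM and 29.6 to 29.8 CPM. CD3E and CDH5 were at 0 in every library. The 6 epithelial markers, none called, summed to 390 to 474 CPM with siCtrl and to 508 to 509 CPM with siFAM53C. The 8 pigment epithelium markers, none called, summed to 52.1 to 66.6 CPM and to 49.3 to 60.5 CPM. The part of these marker differences in the changes of PPP3R1 and NFATC4 was not tested.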

How the data were processed

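Counts per gene were deposited by the authors without normalization; per the labels and methods, reads from 5 libraries were trimmed with cutadapt 2.10, aligned to hg38 with HISAT2 (reverse-stranded) and counted with featureCounts. The annotation release and the strand setting of the counting are not given in the sources used here. Library totals ranged from 19260124 to 25615415, which limits genes with few counts. Conditions came from the sample labels. The methods speak of duplicates, and all 5 libraries were used. No replicate pair agreed within sampling noise (chi-square per gene 9.31 to 45.3).

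Differences were fitted with edgeR 4.0.16 under R 4.3.3 (filterByExpr at a minimum count of 10 and total of 15, TMM factors, condition-only model, robust quasi-likelihood test, Benjamini-Hochberg adjustment over 15341 genes, threshold 0.05). The scripts were tested on simulated counts. RPKM used exon union lengths of GENCODE 44 on GRCh38, which also gave symbols, positions and 3′ UTRs. Sequences upstream of start sites are from RefSeq, GRCh38.p14. A prior count of 2 was added for log2 CPM. Members and lists were chosen with earlier results of these data known. Named genes were FAM53C, the members, called pathway genes, the lowest and highest tested gene of each list, the 3 genes nearest to RCAN1, and markers; PPP3CC, RCAN3, DYRK1A, GSK3A, KPNB1, CSNK1A1, ORAI1, ORAI2, STIM1, STIM2, IL6, F3, SLC5A3, AKR1B1, SLC6A6 and the genes at 0 were added after their values were seen. Some genes of these lists are not reported here. Alternatives were DESeq2 1.42.0, limma-voom (limma 3.58.1), other size factors, other filters, replicate blocks, a term for the library split, p-values without adjustment, and leaving out each library.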

Additional observations from a re-analysis of the deposited data

How the results depend on the processing

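PPP3R1 (log2 fold change -0.80 to -0.63) and NFATC4 (0.70 to 0.79) kept their direction and call under all 10 other settings run on all 5 libraries, and each lost its call in 4 of the 5 fits that left out 1 library. Leaving out a siFAM53C library leaves 1 library in that group, which is then assumed to vary like the controls. Without 1 library, 0 to 1 members were called lower and 0 to 2 higher, 0 to 5 further pathway genes lower and 0 to 3 higher, and 157 to 886 of all genes lower and 6 to 414 higher. The 886 and 414 came without siCtrl replicate 3, and the cause was not tested.

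The further pathway genes called lower, 2 as reported, were 1 with library totals, 1 with upper-quartile factors, 4 with DESeq2, 8 at an unadjusted p and 8 with a split term, which gives each side of the library split its own level. Those called higher, 1 as reported, were 2 with no filter on low counts, 3 with DESeq2, 4 at an unadjusted p and 5 with the split term. Of all genes, 961 were lower with no filter, 890 with DESeq2, 1607 at an unadjusted p and 1636 with the split term, against 533 as reported. Those higher were 121 with library totals, 375 with no filter, 257 with DESeq2, 1014 at an unadjusted p and 1037 with the split term, against 75. The median log2 fold change of the members, -0.09 as reported, was -0.018 with library totals, -0.18 with limma-voom, -0.15 with the split term, -0.18 and -0.23 within the sides, and -0.15 to -0.077 without 1 library.

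Replicate numbers in the titles pair 2 libraries of each condition, but the number of siFAM53C replicate 2 differs between its title (2) and its column name (3). Deviations from the group means correlated at 0.17 for number 1, -0.28 for number 2 of the titles and 0.37 for number 3 of the column names. These values are not separate checks. The deviations of the 2 siFAM53C libraries mirror each other and those of the siCtrl libraries cancel out, which ties the correlations together. A shared origin was therefore not established. With a replicate block by titles, 2 members were called higher (NFAT5 at 0.53, edgeR adjusted p = 0.0207, beside NFATC4), with 4 pathway genes lower and 3 higher, and 856 of all genes lower and 355 higher. With a replicate block by column names, 8 pathway genes were lower and 4 higher, 1350 of all genes lower and 642 higher, and the median of the members was -0.16. With that block CXCL8 (-1.22, edgeR adjusted p = 4.07e-06), EGR3 (1.57, 0.0496) and SLC38A2 (-0.40, 0.00778) were also called. PPP3R1 and NFATC4 were called under either block.

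Members and pathway genes with few counts or with libraries far apart changed sign. NFATC1 was at 1.04 with the block by titles and between -0.39 and 0.93 without 1 library (0.93 without siFAM53C replicate 1). NFATC2 was at -0.59 with limma-voom, -0.32 and -0.52 with the blocks by titles and by column names, -0.62 with the split term and between -2.01 and 0.92 without 1 library. NFAT5 was between -0.069 and 0.55 without 1 library (-0.069 without siCtrl replicate 1, -0.04 without siFAM53C replicate 2). HOMER2 was at -0.24 with the block by titles and between -1.29 and 1.06 without 1 library (-0.19 without siCtrl replicate 3). CXCL8 was at 0.50 with the block by titles and between -3.27 and 1.21 without 1 library (0.12 without siFAM53C replicate 1). Why these values changed was not tested. With 3 libraries against 2, genes with few counts such as NFATC1 could not be resolved at this depth.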
